A study of Mus musculus with 8 samples.

Results

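Genes of ADP-ribosylation, 10 in number, were followed across the libraries of a mouse macrophage experiment: the poly(ADP-ribose) polymerase (PARP) family genes Parp1, Parp2, Parp3, Parp8, Parp9, Parp10, Parp11, Parp12 and Parp14, and Dtx3l, whose product is the ubiquitin ligase partner of PARP9. They were taken by symbol from the 42454 rows of the gene count table, where all 10 were present, and 9 of the 10 passed the filter on low counts that left 11081 genes for testing. Parp8 did not pass. RNA came from RAW264.7, an established mouse line of macrophage-like tumour cells, in 8 libraries, 2 for each of 4 labelled groups. Treatments are given as the labels state them. For mock they name the solvent DMSO, and for TubB they name Tubuloside B, a plant phenylethanoid glycoside. For LPS_IFNg they name lipopolysaccharide (LPS) at 10 ng/ml with interferon-gamma (IFN-γ) at 20 ng/ml for 24 h, and for LPS_IFNg_TubB that stimulus together with Tubuloside B. All groups share the same line, and the labels name no genetic change. The Tubuloside B dose is not given in the sources used here, nor is a time for mock and TubB. Nothing in the sources says whether the replicates came from separate cultures, and a p-value therefore speaks only of the spread among these 8 libraries, which may be technical.

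Genes that macrophages switch on after LPS and IFN-γ went against the labels of 2 groups, which bears on every direction below. Nos2, the inducible nitric oxide synthase, averaged 166 CPM (counts scaled to library size after TMM normalisation) in the libraries labelled mock and 183 in those labelled LPS_IFNg, but 6363 in the TubB and 6792 in the LPS_IFNg_TubB libraries. Ptgs2, the inducible cyclooxygenase, averaged 43.7, 44.0, 1781 and 1756 CPM in the same order. Il6, a secreted cytokine, had 1 count in mock, 0 in LPS_IFNg, 613 in TubB and 568 in LPS_IFNg_TubB, each summed over 2 libraries. Whether the TubB and LPS_IFNg labels were exchanged was not tested. If they were, the comparison named TubB minus mock would hold the effect of the stimulus and the one named LPS_IFNg minus mock that of the compound. Groups are therefore named by their labels throughout. The comparison of LPS_IFNg_TubB with mock is given first, because neither of its sides holds the TubB or the LPS_IFNg libraries. Those libraries still enter its normalisation, filter and estimate of spread, because all 8 libraries were fitted together. Totals ran from 4767894 to 8413834 counts per library. Of 10 macrophage markers 9 were detected and Mertk was at 0. Their summed level was 8116 to 8385 CPM in the libraries labelled mock and LPS_IFNg and 9538 to 10119 in the other 4. Single markers, however, moved apart. Between mock and LPS_IFNg_TubB, 6 of the 9 tested were called higher and 1 lower, where over all genes 26.6% were called higher and 25.3% lower. Adgre1 went from 12.4 to 94.0 CPM and Csf1r from 461 to 197. Of the neutrophil markers, S100a9, Ly6g and Mpo were at 0 and the list of 6, nearly all of it S100a8, summed to 4.61 to 6.42 CPM against 31.5 to 51.8. The 4 dendritic cell markers summed to between 40.1 and 54.5 CPM with Flt3 at 0. Of these, Xcr1 went from 0.430 to 11.8 CPM between mock and LPS_IFNg_TubB and Itgax from 41.3 to 32.9, both called. Xcr1 lay under the filter level of 1.66 CPM in mock and LPS_IFNg and was tested only through the groups where it is high. The T cell, B cell, epithelial and fibroblast lists summed to at most 0.170, 0.577, 0.251 and 2.79 CPM. The part of these markers in the results was not tested.

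PARP enzymes take ADP-ribose from NAD and attach it to proteins or nucleic acids, some as long chains and others as single units. PARP1 and PARP2 build chains at DNA breaks and recruit repair factors, and PARP3 adds single units at breaks. PARP10, PARP11, PARP12 and PARP14 are mono-ADP-ribosyltransferases whose genes are known for induction by interferons. PARP9, itself with little or no activity of its own, works with the ubiquitin ligase DTX3L, and PARP9 and PARP14 have been described as acting on interferon signalling in macrophages.

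In the RefSeq annotation of GRCm38.p6, 3 of the interferon-linked genes lie side by side on chromosome 16. Parp14 spans chr16:35831892-35871518 on the minus strand, Dtx3l chr16:35926515-35939027 on the minus strand and Parp9 chr16:35938470-35972621 on the plus strand. They are the 3 protein-coding genes of a stretch of 140730 bases. The bodies of Dtx3l and Parp9 overlap head to head by 558 bases, of which 334 are exon in both genes, 8.501% of the Parp9 exon length and 6.45% of that of Dtx3l. Reads in those shared bases cannot be assigned to 1 gene by an unstranded count. The other genes are apart. Parp1 lies at chr1:180568891-180600999 (plus), Parp2 at chr14:50807897-50821301 (plus) and Parp3 at chr9:106470322-106476949 (minus). Parp8 lies at chr13:116850842-117026019 (minus), Parp10 at chr15:76232995-76243440 (minus), Parp11 at chr6:127446830-127514233 (plus) and Parp12 at chr6:39086412-39118349 (minus).

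Promoter windows are shown for 4 members that moved together or against each other in the libraries. RefSeq windows of GRCm38.p6, 250 bases before to 50 after a transcript start, were matched for 7 of the 10 members, 8 windows in all, and not for Parp9, Parp10 and Parp14. They were searched on both strands for the core letters of the interferon-stimulated response element (ISRE), GAAANNGAA, and of the gamma-activated site (GAS), TTCNNNGAA. Of 32851 windows of this length, 8.56% hold the first and 8.30% the second. The windows below run 5′ to 3′ on the strand of the gene, with motif matches in capitals. They are the upstream of the 2 Parp11 windows, chr6:127446590-127446889 (plus), then Dtx3l, chr16:35938978-35939277 (minus), Parp3, chr9:106476900-106477199 (minus), and Parp1, chr1:180568641-180568940 (plus).
Parp11: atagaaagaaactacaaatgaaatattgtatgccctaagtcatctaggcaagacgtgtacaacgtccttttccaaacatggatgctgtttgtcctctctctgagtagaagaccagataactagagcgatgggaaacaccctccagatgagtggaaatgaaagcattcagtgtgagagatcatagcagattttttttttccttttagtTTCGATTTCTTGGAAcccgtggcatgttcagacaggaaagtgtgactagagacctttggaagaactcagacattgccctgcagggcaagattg
Dtx3l: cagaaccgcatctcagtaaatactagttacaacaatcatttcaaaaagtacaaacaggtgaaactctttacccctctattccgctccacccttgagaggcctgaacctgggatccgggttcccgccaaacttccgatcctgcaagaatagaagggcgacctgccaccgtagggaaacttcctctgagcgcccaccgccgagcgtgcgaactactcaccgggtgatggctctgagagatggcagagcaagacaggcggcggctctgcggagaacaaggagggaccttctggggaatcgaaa
Parp3: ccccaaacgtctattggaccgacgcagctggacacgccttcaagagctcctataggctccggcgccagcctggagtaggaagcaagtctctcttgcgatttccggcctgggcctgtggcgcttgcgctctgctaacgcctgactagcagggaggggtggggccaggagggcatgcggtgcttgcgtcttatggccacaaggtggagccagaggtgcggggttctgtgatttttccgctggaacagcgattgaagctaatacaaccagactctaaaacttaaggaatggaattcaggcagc
Parp1: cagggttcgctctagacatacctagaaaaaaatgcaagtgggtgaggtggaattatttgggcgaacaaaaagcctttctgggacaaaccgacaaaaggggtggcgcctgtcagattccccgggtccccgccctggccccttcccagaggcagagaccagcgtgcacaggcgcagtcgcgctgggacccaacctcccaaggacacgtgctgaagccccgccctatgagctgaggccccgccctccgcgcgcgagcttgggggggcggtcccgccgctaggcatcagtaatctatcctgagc
The upstream Parp11 window held 1 match of each motif, the ISRE core GAAATCGAA on the opposite strand from position -43 and the GAS core TTCTTGGAA from position -37, counted from the start site, so that the 2 matches overlap. No match was found in the other 7 windows. All 300 bases of the Dtx3l window lie within the Parp9 gene, and 156 of them are Parp9 exon. A match is a stretch of letters and not a measured site, and these libraries hold no binding data.

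Parp14, the large macrodomain-bearing mono-ADP-ribosyltransferase, differed most between the groups by fold. Its level was 8.93 and 7.36 CPM in mock replicates 1 and 2 and 7.57 and 4.76 CPM in those labelled LPS_IFNg. It was 872 and 609 CPM in the libraries labelled TubB and 882 and 641 CPM in those labelled LPS_IFNg_TubB. The gene was low in 4 libraries and high in 4, with no overlap. The share of all genes that separate in this way was not computed. Here and for the genes below, a lack of overlap is therefore a description only. Between LPS_IFNg_TubB and mock it rose by 6.54 ± 0.38 on the log2 scale (standard error, SE), 92.98-fold, with an adjusted p of 0.000147 (edgeR's quasi-likelihood test, Benjamini-Hochberg over all genes tested). The labelled differences TubB minus mock, at 6.50 ± 0.38, and LPS_IFNg_TubB minus LPS_IFNg, at 6.94 ± 0.40, gave adjusted p-values of 0.000153 in edgeR. In bulk RNA, fewer cells with a transcript and less transcript per cell cannot be told apart.

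Parp9 and Dtx3l, which encode the 2 subunits of the same complex and start from the same stretch of chromosome 16, rose together. Parp9 measured 17.7 and 12.8 CPM in mock, 19.9 and 14.1 CPM in LPS_IFNg, 203 and 175 CPM in TubB, and 189.85 and 182 CPM in LPS_IFNg_TubB. Dtx3l measured 18.1 and 16.7 CPM in mock, 19.4 and 15.6 CPM in LPS_IFNg, 165 and 134 CPM in TubB, and 162 and 137 CPM in LPS_IFNg_TubB. For both genes each library labelled TubB or LPS_IFNg_TubB lay above each of the other 4. Against mock, the LPS_IFNg_TubB libraries were higher by 3.598 ± 0.14 (log2, SE) for Parp9, 12.1-fold, with an edgeR adjusted p of 4.53e-16. For Dtx3l the difference was 3.09 ± 0.13, 8.53-fold, with an edgeR adjusted p of 7.56e-17. Per length, that is CPM per kilobase of summed exons, the level of Parp9 was 1.29 and 1.01 times that of Dtx3l in mock, 1.35 and 1.19 times in LPS_IFNg, 1.62 and 1.71 times in TubB and 1.54 and 1.75 times in LPS_IFNg_TubB. Of the counts of both genes together, Parp9 held 49.4% (exact 95% binomial interval 43.1% to 55.7%) and 43.4% (36.5% to 50.5%) in mock against 53.9% (51.4% to 56.5%) and 57.1% (54.8% to 59.3%) in LPS_IFNg_TubB. The shares of the 2 groups do not overlap while the intervals of mock replicate 1 and LPS_IFNg_TubB do, and no test was made. The intervals cover counting error within a library only and not the spread between libraries. PCR copies of a molecule could not be told apart, and copies counted as separate reads would make the intervals too narrow.

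The chromosome 16 genes can be set beside their protein-coding neighbours by position. Hspbap1, next to Parp14, averaged 3.90 CPM in mock and 7.75 in LPS_IFNg_TubB, higher by 0.99 ± 0.33 on the log2 scale (edgeR adjusted p = 0.0120). Kpna1, an importin subunit gene next to Parp9, averaged 119 and 94.1 CPM and fell by 0.34 ± 0.10 (edgeR adjusted p = 0.00759). The 3 genes between them rose by 3.09 to 6.54.

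Parp12, a zinc-finger mono-ADP-ribosyltransferase, gave 36.1 and 26.5 CPM in mock, 32.4 and 33.5 CPM in LPS_IFNg, 184 and 139 CPM in TubB, and 202 and 166 CPM in LPS_IFNg_TubB. Parp10, a mono-ADP-ribosyltransferase first described as a MYC partner, gave 13.8 and 20.5 CPM in mock, 22.2 and 19.0 CPM in LPS_IFNg, 119.7 and 95.9 CPM in TubB, and 113 and 94.2 CPM in LPS_IFNg_TubB. Parp11, a mono-ADP-ribosyltransferase found at the nuclear envelope, gave 7.40 and 7.93 CPM in mock, 8.56 and 9.51 CPM in LPS_IFNg, 52.3 and 44.2 CPM in TubB, and 53.9 and 39.2 CPM in LPS_IFNg_TubB. For these 3 genes as well, the libraries labelled TubB and LPS_IFNg_TubB lay above the others without overlap, again as a description only. Their differences between LPS_IFNg_TubB and mock were close in size, at 2.54 ± 0.17 (log2, SE) for Parp12, 2.59 ± 0.16 for Parp10 and 2.59 ± 0.19 for Parp11, or 5.83-fold, 6.01-fold and 6.01-fold. The edgeR adjusted p-values were 2.57e-07, 5.07e-11 and 2.57e-12.

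**Figure D1:**
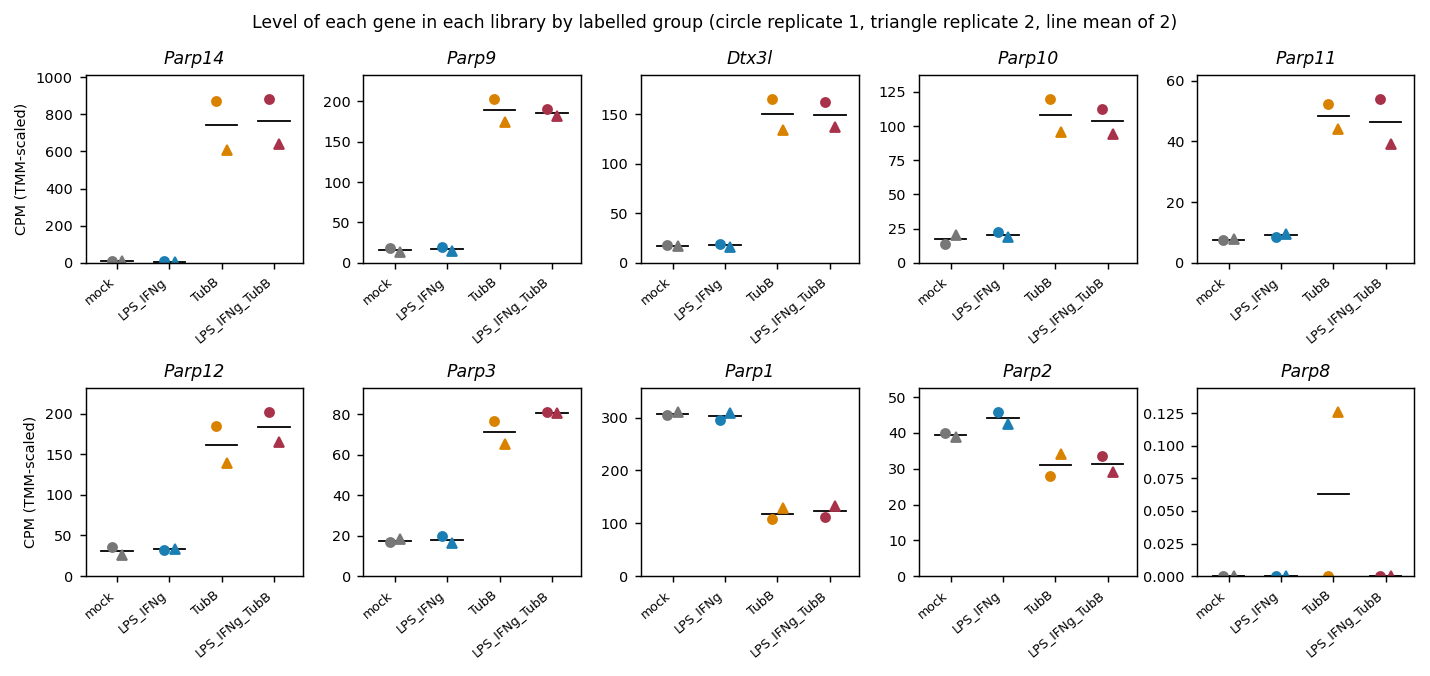
Level of each of the 10 genes in CPM (vertical axis, linear from 0, its own range in each panel) in the 4 labelled groups, with replicate 1 as a circle, replicate 2 as a triangle and the mean of 2 as a line. The 6 interferon-linked genes and Parp3 are high in the libraries labelled TubB and LPS_IFNg_TubB, Parp1 falls from 296 CPM or more to 134 or less, and Parp8 has 1 count in 1 library.

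The DNA-damage genes did not move as a group. Parp1, the main sensor of DNA breaks, gave 305 and 310.0 CPM in mock, 296 and 309 CPM in LPS_IFNg, 107 and 128 CPM in TubB, and 113 and 134 CPM in LPS_IFNg_TubB. It fell by 1.31 ± 0.088 on the log2 scale between mock and LPS_IFNg_TubB, a level 2.49-fold lower (edgeR adjusted p = 3.53e-13), again with no overlap. Parp3 moved the other way. Its libraries gave 16.6 and 18.2 CPM in mock, 19.8 and 16.3 CPM in LPS_IFNg, 76.6 and 65.2 CPM in TubB, and 80.8 and 80.6 CPM in LPS_IFNg_TubB, a rise of 2.21 ± 0.14, 4.64-fold (edgeR adjusted p = 6.18e-14). Parp3 thus had the direction of the interferon-linked genes and not that of the other break-activated genes. Parp2, the closest relative of Parp1, differed least, with 39.9 and 38.9 CPM in mock, 45.8 and 42.6 CPM in LPS_IFNg, 28.1 and 34.2 CPM in TubB, and 33.5 and 29.1 CPM in LPS_IFNg_TubB. Its difference between LPS_IFNg_TubB and mock was -0.34 ± 0.14, with an edgeR adjusted p of 0.0472, just under the threshold of 0.05. Leaving out mock replicate 1 ended the call (adjusted p = 0.159), as did leaving out mock replicate 2 (0.108), LPS_IFNg replicate 1 (0.0604), LPS_IFNg replicate 2 (0.0594) or LPS_IFNg_TubB replicate 2 (0.303, log2 difference -0.23). It was also lost with DESeq2 (adjusted p = 0.189).

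Counted over the members, 7 were called higher and 2 lower in the libraries labelled LPS_IFNg_TubB than in mock, of 9 tested, where over all genes 26.6% were called higher and 25.3% lower. The members, and the gene lists below, were chosen with earlier results of these data known. Setting their counts beside all genes is therefore no test. The counts were also 7 and 2 when the TubB and LPS_IFNg libraries were left out of the fit, with Parp14 at 6.54 and Parp1 at -1.31. The 6 interferon-linked genes were all higher, with a median log2 difference of 2.84 beside -0.01 over all genes tested. Of the 3 DNA-damage genes, Parp3 was higher and Parp1 and Parp2 were lower. All 9 had libraries that did not overlap. The share of all genes without overlap was not computed, so this count is a description only. In the labelled comparison of TubB with mock, 7 members were called higher and 1 lower, against 26.3% and 24.9% of all genes. There the interferon-linked median was 2.87, Parp1 fell by 1.37 ± 0.088 and Parp3 rose by 2.02 ± 0.14 (edgeR adjusted p = 1.16e-13 and 5.15e-13), and Parp2, at -0.32 ± 0.14, was not called (edgeR adjusted p = 0.0555), though it was without TubB replicate 2 (0.0289). In that of LPS_IFNg_TubB with LPS_IFNg, 7 were higher and 2 lower, against 26.2% and 25.0%. The median there was 2.78, Parp1 fell by 1.29 ± 0.089, Parp3 rose by 2.16 ± 0.14 and Parp2 fell by 0.51 ± 0.14 (edgeR adjusted p = 6.57e-13, 1.78e-13 and 0.00417). Without LPS_IFNg_TubB replicate 2 the last call was lost (0.0711). Each of these 2 comparisons shares a group with that of LPS_IFNg_TubB and mock, and so adds no separate evidence to it. They share no library with each other, but the TubB and the LPS_IFNg labels go against Nos2, Ptgs2 and Il6.

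**Figure D2:**
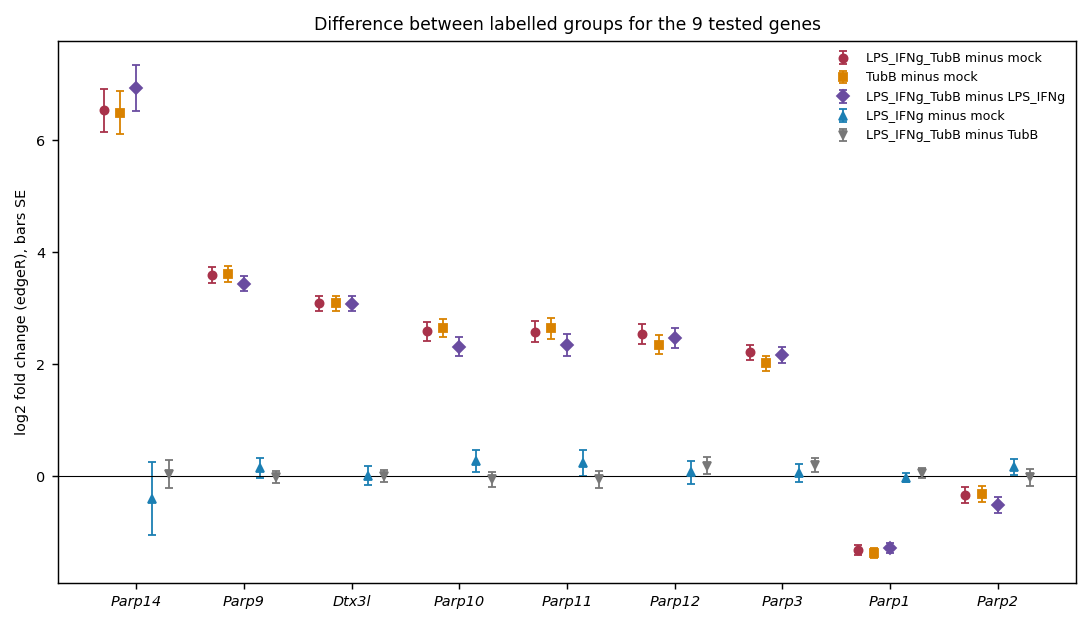
Log2 fold change (vertical axis) of the 9 tested genes in 5 comparisons of labelled groups, from edgeR, with bars for the SE. The first 3 comparisons lie between 2.02 and 6.94 for 7 genes and below 0 for Parp1 and Parp2, and the other 2 comparisons lie between -0.40 and 0.27.

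The stimulus as labelled gave no call among the members. Between the libraries labelled LPS_IFNg and mock, edgeR called 0 of 9 members higher and 0 lower, against 0% and 0% of all genes tested. DESeq2 and limma on the rlog values also called 0 members, and at an unadjusted p under 0.05 edgeR had 0 members and 247 genes. The 9 differences ran from -0.40 for Parp14 (95% interval -2.15 to 1.35) to 0.27 for Parp10 (-0.13 to 0.67). For Parp1 the interval was -0.19 to 0.15 and for Dtx3l -0.34 to 0.35. Parp2 and Parp11 were the 2 genes whose libraries did not overlap, at unadjusted edgeR p-values of 0.234 and 0.324. With 2 libraries a group such separation can arise without a difference, and its share over all genes was not computed. Between LPS_IFNg_TubB and TubB edgeR again called 0 members higher and 0 lower, against 0% and 0% of all genes, with 0 members and 269 genes at an unadjusted p under 0.05 and 0 members by the other tools. The differences ran from -0.05 to 0.20, and the intervals were -0.63 to 0.72 for Parp14, -0.24 to 0.21 for Parp9 and -0.23 to 0.22 for Dtx3l. Parp3 had the largest difference, with an interval of -0.05 to 0.44, and was the 1 gene without overlap. The interaction, which asks whether the TubB difference depends on the labelled stimulus, called 0 members higher and 0 lower, against 0% and 0% of all genes, with 0 members and 277 genes at an unadjusted p under 0.05 in edgeR and 0 members by the other tools. Its widest member interval, for Parp14, was -1.43 to 2.31.

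The order of the genes by level per length turned over between the sets of libraries. In mock, Parp1 stood first at 84.1 ± 0.95 CPM per kilobase (SD, n = 2), above 93.3% of tested genes, followed by Parp2 at 20.7 ± 0.36 and Parp12 at 9.71 ± 2.1. Parp3, Parp10, Parp9 and Dtx3l came next, at 5.27, 5.05, 3.89 and 3.37 CPM per kilobase. The ranges of Parp3, Parp10 and Parp9 each overlapped the next, while Dtx3l lay above Parp11 in both libraries. Parp11 stood at 1.34 ± 0.067, and Parp14 was last of the detected genes at 0.783 ± 0.11, above 10.3% of tested genes. The LPS_IFNg libraries had the same order except that Parp10 stood above Parp3, with overlapping ranges. In LPS_IFNg_TubB, Parp14 came first at 73.3 ± 16 CPM per kilobase, above 91.4% of tested genes, and its range overlapped that of Parp12 at 56.9 ± 7.8. Below them came Parp9 at 47.3, then Parp1 at 33.7, Parp10 at 30.5 and Dtx3l at 28.8 with overlapping neighbours, Parp3 at 24.5, Parp2 at 16.4 and Parp11 at 8.17. The TubB libraries gave the same order, with Parp14 at 71.2 ± 18 above Parp12 in both libraries and Parp12 overlapping Parp9.

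As a share of the summed level per kilobase of the 10 genes, Parp1 made up 61.9% and 63.5% in mock, 58.4% and 61.9% in LPS_IFNg, 8.73% and 12.5% in TubB, and 9.004% and 12.3% in LPS_IFNg_TubB. Parp14 made up 0.637% and 0.530%, then 0.525% and 0.335%, then 24.9% and 20.9%, then 24.8% and 20.8% in the same order. The 3 DNA-damage genes together therefore went from 81.1% and 82.9% in mock to 21.3% and 25.7% in LPS_IFNg_TubB, and the interferon-linked genes from 18.9% and 17.1% to 78.7% and 74.3%. Per kilobase, the ratio of Parp14 to Parp1 was 0.0103 and 0.00835 in mock and 2.75 and 1.69 in LPS_IFNg_TubB. That of Parp3 to Parp1 was 0.0603 and 0.0650 in mock and 0.795 and 0.669 in LPS_IFNg_TubB. The 10 genes together made up 494 to 510 CPM, scaled by raw totals, in the libraries labelled mock and LPS_IFNg and 1348 to 1671 in the other 4.

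**Figure D3:**
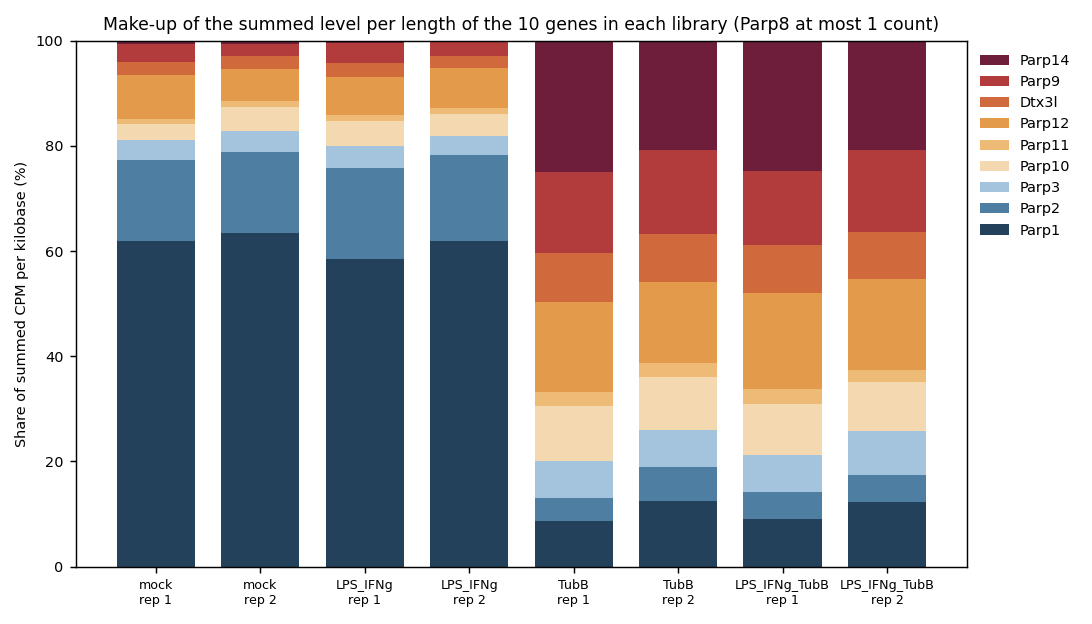
Share of the summed CPM per kilobase of the 10 genes (vertical axis, percent) held by each gene in each of the 8 libraries. Parp1 fills 58.4% to 63.5% of the bar in the libraries labelled mock and LPS_IFNg and 8.73% to 12.5% in those labelled TubB and LPS_IFNg_TubB, where Parp14 fills 20.8% to 24.9%.

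Replicates of a group differed among themselves. All 6 interferon-linked genes were higher in replicate 1 than in replicate 2 of both TubB and LPS_IFNg_TubB. Among these 6 genes the log2 difference in the 2 groups was largest for Parp14 in TubB, at 0.52, and smallest for Parp9 in LPS_IFNg_TubB, at 0.06. Parp1 was lower in replicate 1 of both, with differences of -0.25 and -0.25. Nos2, Ptgs2 and Il6 were also higher in replicate 1 of both groups, as was Parp3, by 0.23 and 0.003. The share of all genes higher in replicate 1 was not computed. In mock and LPS_IFNg the directions were mixed. Parp9, Parp14 and Dtx3l were higher in replicate 1 there as well, with Parp14 at 0.64 in LPS_IFNg. Parp1 was lower by little, at -0.02 in mock and -0.06 in LPS_IFNg. Parp10 was at -0.56 in mock, Parp11 at -0.10 in mock and -0.15 in LPS_IFNg, and Parp12 at -0.05 in LPS_IFNg.

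Parp8, which encodes a mono-ADP-ribosyltransferase of unsettled function, had 1 count in all, in TubB replicate 2, and 0 in the other 7 libraries. A count of 0 allows up to 3 counts, which is 0.419 to 0.689 CPM in those libraries. No fold change can be given for it, and its level did not pass that floor in any library. The lowest value of any other member was 28 counts, 4.76 CPM, for Parp14 in LPS_IFNg replicate 2.

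The patterns closest to each member were ranked by Pearson's r of log2 CPM over the 8 libraries, among 8607 named genes of sufficient level. Because the libraries form 2 separate sets, 1259 to 1462 genes exceed an r of 0.95 with each member, so r is given as a description of likeness only. For Parp9 the 5 nearest were Casp4, a caspase that binds LPS, Gbp2, a guanylate-binding protein, Irf8, Zbp1 and H2-T23, with r from 0.998 to 0.999. Nearest to Dtx3l were Tmem106a, Nos2, Itpripl2, Parp14 and Rapgef2, and nearest to Parp14 were Lcn2, Nfkbiz, Slc25a37, Dtx3l and Batf2. Dtx3l was thus the fourth neighbour of Parp14 and Parp14 the fourth of Dtx3l, while Dtx3l ranked 15 for Parp9 and Parp9 ranked 46 for Dtx3l. Parp1, with falling levels, had Tpcn1, Zfp36l2, Gart, Slc7a5 and Npm1 nearest.

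Other PARP family genes in the table were higher by smaller amounts than the interferon-linked members. Of 7 other PARP genes, all tested, 6 were called higher in LPS_IFNg_TubB than in mock and 0 lower by edgeR, against 3 higher by DESeq2 and 6 by limma. The same comparison called 26.6% of all genes higher and 25.3% lower. Their median log2 difference was 0.57. Tiparp, a mono-ADP-ribosyltransferase induced by the aryl hydrocarbon receptor, averaged 55.3 CPM in mock and 210.1 in LPS_IFNg_TubB, a rise of 1.92 ± 0.11. Parp4, part of the vault particle, went from 32.0 to 77.6 CPM, a rise of 1.27 ± 0.12. Zc3hav1, a zinc-finger antiviral protein that binds viral RNA and lacks enzyme activity, went from 169.95 to 341 CPM, a rise of 1.002 ± 0.079. The edgeR adjusted p-values of these 3 were 2.36e-13, 8.80e-10 and 9.32e-12. Parp6, at 0.57 ± 0.21, and the tankyrases Tnks, at 0.31 ± 0.12, and Tnks2, at 0.23 ± 0.082, passed edgeR's adjusted threshold (0.0250, 0.0364 and 0.0198) and did not pass with DESeq2 (0.119, 0.118 and 0.0614). Parp6 was also lost without mock replicate 1 (0.206) or LPS_IFNg_TubB replicate 2 (0.331). Tnks was lost without mock replicate 1 (0.0561), mock replicate 2 (0.203) or LPS_IFNg_TubB replicate 1 (0.424). Tnks2 was lost without mock replicate 2 (0.213), LPS_IFNg_TubB replicate 1 (0.0662) or LPS_IFNg_TubB replicate 2 (0.0677). Parp16, which sits in the endoplasmic reticulum membrane, was at 0.18 ± 0.28 (edgeR adjusted p = 0.621).

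Genes that supply, read or remove ADP-ribose were mixed in the same comparison. Of 16 ADP-ribose hydrolases and readers 13 were tested, 3 were higher and 2 lower by edgeR (2 and 1 by DESeq2), with a median of -0.12. These shares are no larger than the 26.6% and 25.3% of all genes. Rnf114, a ubiquitin ligase, rose by 1.41 ± 0.12, the macrodomain gene Gdap2 rose by 0.90 ± 0.12, and Chd1l, a chromatin remodeller recruited by poly(ADP-ribose), fell by 0.95 ± 0.13 (edgeR adjusted p = 2.55e-11, 2.44e-07 and 7.53e-07). Of the 3 tested of 4 other Deltex genes, relatives of Dtx3l, Dtx2 rose by 1.84 ± 0.14, Dtx4 fell by 1.06 ± 0.094 (edgeR adjusted p = 3.70e-12 and 1.13e-10) and 1 was not called. Among 13 tested of 19 genes of NAD supply and use, 6 were higher and 0 lower by edgeR, with a median of 0.35, beside 26.6% and 25.3% of all genes. Nampt, the rate-limiting enzyme of NAD salvage, averaged 184 CPM in mock and 1037 in LPS_IFNg_TubB, a rise of 2.49 ± 0.10. Bst1, a surface enzyme that consumes NAD, averaged 22.3 and 153 CPM, a rise of 2.78 ± 0.12. Nmrk1, a nicotinamide riboside kinase, rose by 1.63 ± 0.35. The edgeR adjusted p-values of these 3 were 7.52e-12, 1.70e-17 and 0.000350. Leaving out mock replicate 1 left 4 NAD genes called higher. Cd38, the other well-known NAD-consuming surface enzyme, had 3 counts in all and was named after its count was seen.

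Between LPS_IFNg_TubB and mock, repair genes that act with PARP1 were called lower, as Parp1 was, or were not called. Of 20 genes of single-strand break and base excision repair 19 were tested, 0 were higher and 11 lower by edgeR, with a median of -0.46, beside 26.6% and 25.3% of all genes. Without mock replicate 1 there were 7 lower, and by DESeq2 8. Apex1, the abasic site endonuclease, averaged 129.99 CPM in mock and 38.3 in LPS_IFNg_TubB and fell by 1.76 ± 0.11. Mutyh, an adenine glycosylase, fell by 1.82 ± 0.37 and Tdp1, which clears blocked DNA ends, by 1.53 ± 0.19. The edgeR adjusted p-values of these 3 were 8.71e-14, 0.000123 and 2.68e-06. Of 18 genes of interferon signalling 17 were tested, 14 were higher and 0 lower by edgeR, beside 26.6% and 25.3% of all genes. Socs1 and Isg15 lay under the filter level in mock and passed through the groups where they are high. Of the 15 that lay above it in every library, 12 were higher and 0 lower. Irf1, a transcription factor induced by IFN-γ, averaged 6.66 CPM in mock and 724 in LPS_IFNg_TubB, a rise of 6.76 ± 0.11 (edgeR adjusted p = 5.51e-28). Socs1, a feedback inhibitor of the JAK kinases, had 6 and 0 counts in mock and 257 and 363 in LPS_IFNg_TubB, and Isg15, a ubiquitin-like modifier, 9 and 6 against 348 and 253. The directions with 0 calls in the family, NAD, repair and interferon lists also had 0 genes at an unadjusted p under 0.05 in edgeR, and 0 calls by DESeq2 and by limma on the rlog values. In TubB minus mock the repair list gave 1 higher and 11 lower of 19 and interferon signalling 13 higher and 0 lower of 17 by edgeR, beside 26.3% and 24.9% of all genes. In LPS_IFNg_TubB minus LPS_IFNg the repair list gave 1 higher and 11 lower of 19 by edgeR, beside 26.2% and 25.0%. Polb, a repair polymerase gene named after its values were seen, differed against the direction of Parp1. It averaged 19.7 CPM in mock, 27.4 in TubB, 15.3 in LPS_IFNg and 24.5 in LPS_IFNg_TubB.

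**Figure D4:**
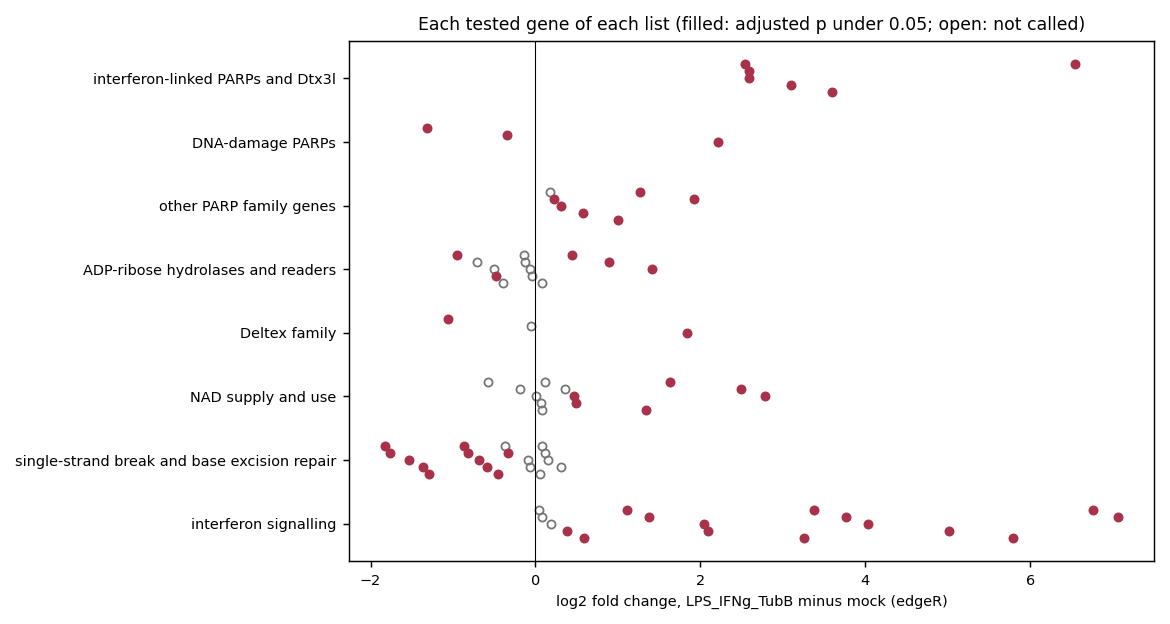
Log2 fold change from edgeR between the libraries labelled LPS_IFNg_TubB and mock (horizontal axis) for each tested gene of 8 lists, filled where the adjusted p was under 0.05. The 6 interferon-linked members lie between 2.54 and 6.54, and the called repair genes all lie below 0. The fitted values of Socs1 and Isg15, under the filter level in mock, are no exact folds.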

How the data were processed

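Polyadenylated RNA of the 8 libraries was prepared with a kit that does not keep strand, per the labels' protocols. The authors deposited raw read counts per gene. Alignment was with STAR 2.7.0 and counting with featureCounts, per the submitters' processing notes. Per the file headers, featureCounts 2.0.1 took paired reads over exons of a GRCm38.p6 annotation with no strand option. The deposited gene length in bases, the summed exon length per the file headers, was used for CPM per kilobase. The authors also deposited regularised log2 values (rlog), used as an alternative. The members and lists were chosen with earlier results of these data known.

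Counts were tested with edgeR 4.0.16 in R 4.3.3: TMM factors, filterByExpr by group (minimum count 10, minimum total 15), robust quasi-likelihood fit of all 8 libraries with group as the term, 4 residual degrees of freedom, Benjamini-Hochberg adjustment over 11081 genes, called under 0.05. Each SE is the absolute log2 fold change over the square root of its F value. Intervals of fold changes are 95%. Log2 CPM for likeness used a prior count of 2 and a minimum mean of 3. All 10 members and 7 other family genes were named whatever their values, and of each other list up to 3 called genes with the largest change between LPS_IFNg_TubB and mock. Genes named outside that rule are the neighbours by position, the cell type markers that moved apart (chosen after their values were seen) and those said to be named after their values were seen. The fit was also run on simulated counts with a small set of genes changed in a single group. That run does not speak for comparisons in which as many genes differ as here. Alternatives were RLE factors, no count filter, the compared groups alone, a replicate block, DESeq2 1.42.0, limma 3.58.1 on rlog values and leaving out each library. The mean chi-square per gene between replicates was 2.60 to 4.87, where sampling noise gives 1, so replicates differed by more than sampling noise. Where that spread arose was not tested. Members' proteins were not analysed here.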

Additional observations from a re-analysis of the deposited data

How the results depend on the processing

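The 7 members called higher in each of the 3 comparisons against mock or LPS_IFNg stayed 7 under every alternative run, and the 0 calls of the other 3 stayed 0. The count of members called lower moved with Parp2. Between LPS_IFNg_TubB and mock it went from 2 to 1 with RLE factors, with no count filter, with DESeq2 and with limma on rlog values, and was 1 to 2 when a library was left out. It was 1 to 2 on leaving out a library for TubB minus mock and for LPS_IFNg_TubB minus LPS_IFNg as well. Of the fold changes of the members and the 7 other family genes, 616 alternatives to a called value all kept its sign, and 42 of them lost the threshold. Of 712 alternatives to a value that was not called, 72 changed sign and 2 passed the threshold. Differences of rlog values are shrunken by construction, at 3.88 for Parp14 and -0.86 for Parp1 between LPS_IFNg_TubB and mock. With a replicate block the counts were 7 and 2, 7 and 1, and 7 and 2, and no member's call changed. The replicate numbers are shared labels only: the correlation of replicate differences between groups ran from -0.05 to 0.15. The compared groups alone give no interaction. Leaving out a library leaves 1 in its group, assumed to vary like the others. Depth limits Parp8 and, at 28 to 64 counts, the low Parp14 libraries.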
